A study of Drosophila melanogaster with 2 samples.

Results

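The 8 core components of the Hedgehog signalling pathway, hh, disp, ptc, smo, cos, fu, Su(fu) and ci, were examined for occupancy by the nuclear zinc finger protein MESR4. The genes were taken from a list of names, out of 13834 protein-coding genes counted, and all 8 were found in the Ensembl annotation. Occupancy was measured by chromatin immunoprecipitation and sequencing (ChIP-seq) in Drosophila melanogaster of a transgenic line that stably expresses MESR4 fused to green fluorescent protein at its C terminus. The material was whole embryos of both sexes, pooled, between 0 and 24 h old, so that all cell types and stages of embryogenesis are averaged. There was 1 group with 2 biological replicates, numbered 1 and 3, and untagged flies were not analysed here. The labels' free text calls both samples input controls, but their antibody field names MESR4 and per the deposited listing each was called against another alignment that served as control, so they were treated as immunoprecipitates. Each replicate list and the list called on both replicates together held 30000 summits, and the list thresholded on reproducibility between replicates held 6415. Read depth is not given in the sources used here, and the signal of a peak is the authors' enrichment value on a scale of its own list. Signals were therefore compared within a list and the lists by rank. With 1 group and 8 genes, the values below are descriptions without a test.

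Hedgehog is a secreted, lipid-modified protein that organises segments in the fly embryo and compartments in the wing disc. In cells that receive no ligand, its receptor Ptc keeps the membrane protein Smo inactive, and the transcription factor Ci is cut to a repressor. Binding of the ligand to Ptc frees Smo, which acts through a complex of the kinesin-like protein Cos, the kinase Fu and the inhibitor Su(fu) so that full-length Ci activates target genes, ptc itself among them. In the embryo hh, ptc and ci are transcribed in segmental stripes, called patterned here, and disp, smo, cos, fu and Su(fu) are transcribed broadly, called ubiquitous here. This division comes from textbook knowledge, since the data hold no expression values.

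A promoter peak, defined as a thresholded summit within 500 bp of any transcription start site (TSS) of the gene, was found at 7 of the 8 genes, while 42.6% of all protein-coding genes had one. Among patterned genes 2 of 3 carried a promoter peak and hh did not. Among ubiquitous genes all 5 did. The strongest promoter signal was 177 at ptc and 268 at ci among patterned genes, against 319 at cos, 350.0 at disp, 496 at smo, 797 at Su(fu) and 815 at fu among ubiquitous genes. In whole embryos, occupancy in fewer cells and weaker occupancy per cell cannot be told apart. All protein-coding genes with a promoter peak had a median of 468 (5889 genes), so both patterned genes, disp and cos lay below that median and smo, Su(fu) and fu above it. When a summit counted for the nearest TSS alone, smo (274) and Su(fu) (222) also lay below the median, which was then 446. With summits counted for every gene within 500 bp, the patterned and ubiquitous values did not overlap in the thresholded list or in either replicate alone, but this rested on the window and the rule. With a window of 250 bp they overlapped in the thresholded list, where ci (268) lay above cos (196) and Su(fu) (222). With the nearest TSS alone they overlapped in replicate 1, where ci (183) lay above cos (141) and Su(fu) (133). In replicate 1 the patterned genes had 33.7 (hh), 114 (ptc) and 183 (ci), against 202 to 584 at the ubiquitous genes. In replicate 3 no summit lay near hh, ptc had 64.9 and ci 80.9, against 113 to 284 at the ubiquitous genes.

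Protein-coding neighbours divided the genes in the same way as the expression class. Each of the 5 ubiquitous genes had a protein-coding neighbour on the opposite strand, its TSS back to back with that of the pathway gene at a distance of 72 to 469 bp. None of the 3 patterned genes had a protein-coding TSS of another gene nearby, the nearest lying 10166 bp away for ci, 13925 bp for hh and 16164 bp for ptc. Of all genes with such a divergent neighbour within 1000 bp, 74.2% had a promoter peak, against 24.8% of the genes without one. The antisense RNA asRNA:CR43957 starts back to back with ci, 166 bp away, and as a non-coding gene was not counted. Among these 8 genes the expression class and the divergent protein-coding neighbour cannot be told apart.

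**Figure D1:**
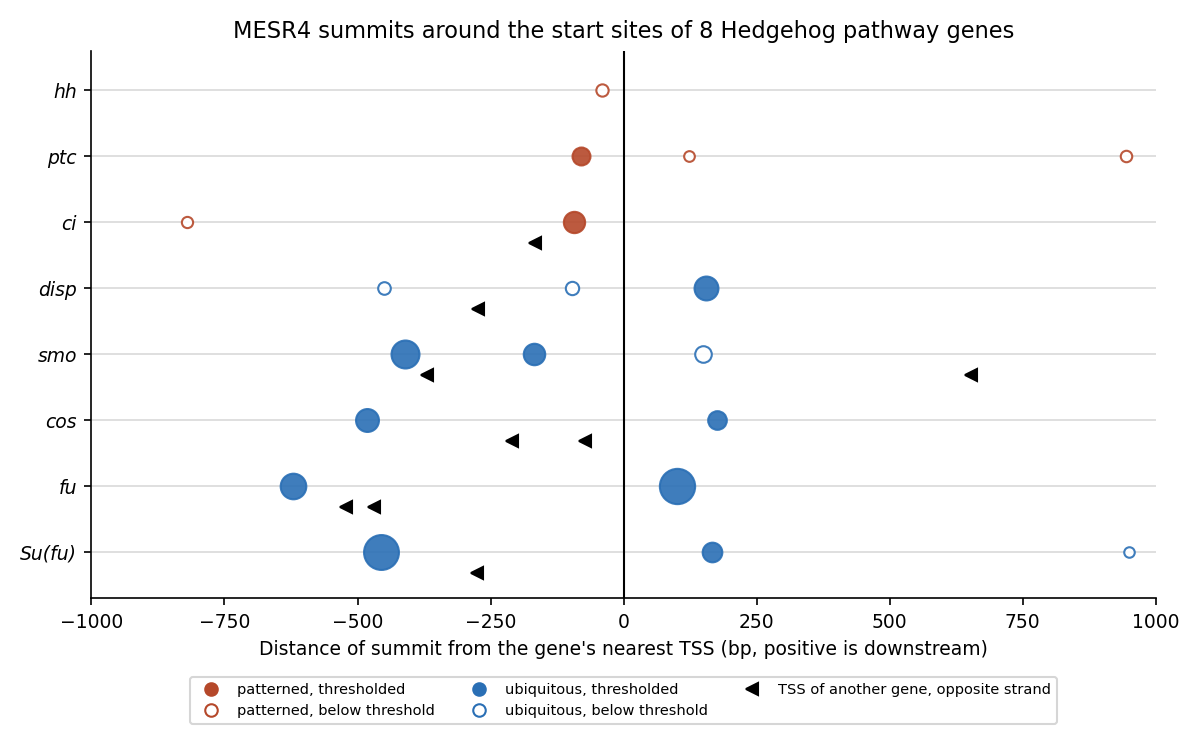
Position of MESR4 summits from the list of both replicates (x axis, distance in bp from the gene's nearest TSS, positive downstream) at the 8 genes (rows), with patterned genes in red above ubiquitous genes in blue, filled points thresholded, open points below the threshold, point area growing with signal and black triangles marking TSSs of other genes on the opposite strand. The 5 ubiquitous genes each have a summit 101 to 175 bp inside the gene and another beyond the neighbour's TSS, while the strongest summits of hh, ptc and ci within 500 bp of a TSS lie 41 to 93 bp upstream.

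The ligand gene hh (FBgn0004644, chromosome 3R, 23128169 to 23141906, minus strand, dm6) has a single annotated TSS, at 23141906. In the list of both replicates its promoter summit lay 41 bp upstream with a signal of 59.4 and rank 14534, far below the lowest thresholded summit at 176. In replicate 1 the summit was 78 bp upstream at rank 18365, and in replicate 3 the nearest summit was 1675 bp away. The nearest thresholded summit lay 13896 bp downstream of the hh TSS, beyond the 3' end of the gene and 29 bp from the TSS of CG31457. The 250 bases upstream of the hh TSS are shown as the promoter of the gene without a promoter peak. Capitals mark the pentamer CGATA (81 to 77 bp upstream), bound by the insulator protein BEAF-32, which 46.7% of promoters hold between 250 bp upstream and 50 bp downstream of the TSS.
hh, chr3R:23141907-23142156, minus strand: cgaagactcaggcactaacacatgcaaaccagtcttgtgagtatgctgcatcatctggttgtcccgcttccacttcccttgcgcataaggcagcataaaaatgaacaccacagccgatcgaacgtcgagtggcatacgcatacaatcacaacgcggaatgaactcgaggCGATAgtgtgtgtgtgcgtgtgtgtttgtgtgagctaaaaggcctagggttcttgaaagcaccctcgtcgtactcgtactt

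The gene disp (FBgn0029088, chromosome 3R, 5849697 to 5856311, minus strand) encodes the membrane protein that releases lipid-modified Hedgehog from producing cells. Its thresholded summit lay 155 bp downstream of the only TSS, in the 5' UTR, with a signal of 350.0 and rank 3537 of 6415. The position was nearly the same in each replicate, 161 bp downstream at rank 3523 in replicate 1 and 156 bp downstream at rank 3556 in replicate 3. No other gene of the 8 had its strongest promoter summit within so narrow a range of ranks in the 3 lists. The neighbour ECSIT, which starts 274 bp away on the opposite strand, had no thresholded summit inside it. In the list of both replicates a summit with a signal of 65.1 lay 176 bp inside ECSIT. The whole stretch between the exons of the pair is shown, with CGATA in capitals.
disp to ECSIT, chr3R:5856312-5856584, minus strand: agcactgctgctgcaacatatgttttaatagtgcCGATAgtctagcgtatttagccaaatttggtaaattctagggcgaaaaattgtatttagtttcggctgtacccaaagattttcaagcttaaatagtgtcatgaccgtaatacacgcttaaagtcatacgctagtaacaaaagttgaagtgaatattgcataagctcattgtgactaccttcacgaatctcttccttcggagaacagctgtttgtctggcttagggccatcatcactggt

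The receptor gene ptc (FBgn0003892, chromosome 2R, 8649649 to 8665223, plus strand) had a thresholded summit 80 bp upstream of its TSS. Its signal of 177 gave it rank 6385 of 6415, close to the edge of the list, whose lowest thresholded signal was 176.10 and whose highest summit left out had 176.08. Replicate 3 placed the summit at almost the same base (79 bp upstream, rank 5870), whereas replicate 1 placed it 6 bp downstream at rank 7053, which is outside that replicate's 6415 strongest summits. No other gene had a TSS within 500 bp of the ptc summit. It lay within a cluster of GAGA elements, the pentamer GAGAG bound by Trl and CLAMP. Overlapping matches spanned 95 to 79 bp upstream, 10 matches lay between 250 bp upstream and 50 bp downstream of the TSS, and 30.1% of all promoters hold at least 1 match there. Further upstream, 3 exact matches to the Ci site GACCACCCA (read on either strand) lay between 758 and 627 bp before the ptc TSS, in a window of 1000 bp in which 0.687% of all promoters hold such a match. The MESR4 summit was therefore more than 500 bp from these letters.

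**Figure D2:**
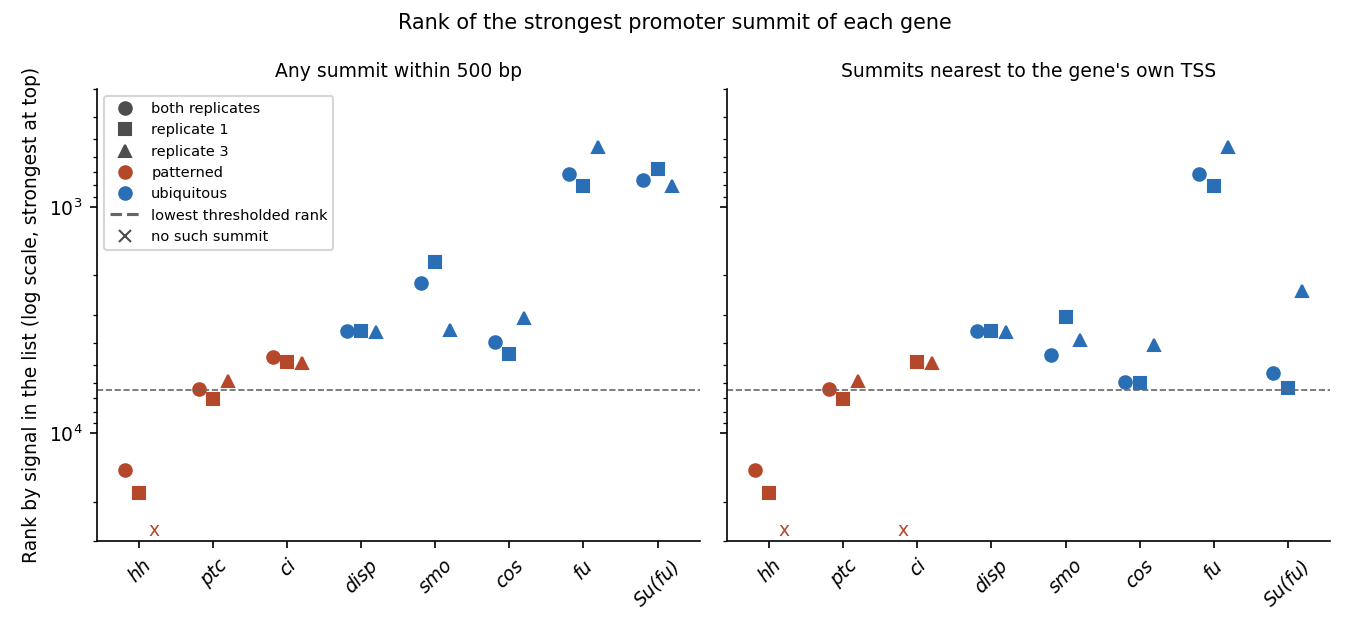
Rank by signal (y axis, log scale, strongest at top) of the strongest summit within 500 bp of a TSS of each gene (x axis, patterned genes in red left of ubiquitous genes in blue) in the list of both replicates (circles), replicate 1 (squares) and replicate 3 (triangles), counting any summit (left) or those nearest to the gene's own TSS (right). On the left fu and Su(fu) rank between 542 and 806 in every list, and on the right Su(fu) ranks between 2337 and 6313, beside smo, cos and disp.

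The gene smo (FBgn0003444, chromosome 2L, 277582 to 282167, plus strand) encodes the membrane protein that passes the signal into the cell. Its promoter region was a broad peak of 1035 bp with 2 thresholded summits. The stronger, with a signal of 496 and rank 2173, lay 410 bp upstream of the smo TSS and only 40 bp inside the divergent gene CG17078, whose TSS was the nearest. The weaker, with a signal of 274 and rank 4509, lay 169 bp upstream, nearer to smo than to CG17078 and within a 5' UTR of a longer CG17078 transcript. A further summit inside smo, 149 bp downstream, had a signal of 145 and rank 7413 in the list of both replicates and was not thresholded. It lay in the 5' UTR of smo and also in a 5' UTR of the longer CG17078 transcript. The replicates differed here. Replicate 1 had the upstream summit at rank 1752, the middle summit at rank 3043 and the one inside smo at rank 9088. In replicate 3 the summit inside smo reached rank 3847, close to rank 3472 of the upstream summit, and the middle summit was missing, the nearest lying 279 bp from it. Between the upstream and middle summits, 2 sequence elements known from broadly transcribed promoters lie next to each other, the DNA replication-related element (DRE, TATCGATA, bound by DREF), which holds CGATA, and the core of Motif 1 (GGTCACACT, bound by M1BP), here on the reverse strand. They are shown in capitals, 308 to 301 bp and 290 to 282 bp before the smo TSS, in a stretch chosen after the matches were seen. The stretch lies nearer to the CG17078 TSS at 277212 than to the smo TSS, and all 30 of its bases are in an annotated exon.
smo upstream, chr2L:277272-277301, plus strand: gtTATCGATActccgcacccAGTGTGACCg

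The kinase gene fu (FBgn0001079, chromosome X, 18657755 to 18661204, plus strand) had the strongest promoter peak of the 8 genes in the thresholded list and in replicate 3. In replicate 1 Su(fu) had the strongest (584 against 547 at fu), at a summit nearer to the TSS of Arp1. The replicate 1 summit nearest to the Su(fu) TSS had 133. With a thresholded signal of 815, 1.74 times the median of all genes with a promoter peak, fu had rank 710 of 6415. The fu summit lay 101 bp downstream of the only TSS, in a coding exon. Both replicates placed it within 2 bp of that position, at rank 804 in replicate 1 and rank 542 in replicate 3. No other gene had a TSS within 500 bp of it. A separate summit (signal 409, rank 2926) lay 621 bp upstream and 100 bp inside the divergent gene CG6659, too far away to count for fu. The 120 bases before fu that lie next to the CG6659 start site carry a Motif 1 core (425 to 417 bp before the fu TSS) and a CGATA, both in capitals, and were likewise chosen for these matches.
fu upstream, chrX:18657305-18657424, plus strand: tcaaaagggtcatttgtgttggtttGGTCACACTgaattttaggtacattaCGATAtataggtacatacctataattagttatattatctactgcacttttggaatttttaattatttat

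The gene Su(fu) (FBgn0005355, chromosome 3R, 12689873 to 12691468, minus strand) encodes the inhibitor that binds Ci. It had 2 thresholded summits within 500 bp of its TSS. The stronger (signal 797, rank 755) lay 456 bp upstream, 181 bp inside the divergent gene Arp1, in an Arp1 intron that also holds the end of CG31347. The weaker (signal 222, rank 5402) lay 166 bp downstream of the Su(fu) TSS, in a coding exon. Counted by the summit nearest to its own TSS, Su(fu) therefore had 222 in place of 797. Its own summit ranked 6313 in replicate 1 and 2337 in replicate 3, so the replicates ranked it differently, whereas the summit in Arp1 ranked 678 and 806. The sequence from the Su(fu) start site up to the next annotated exon upstream is shown because the stronger summit lies beyond it. It holds no DRE, Motif 1 core, CGATA or GAGAG, and the capitals mark a TATAAA 133 to 128 bp upstream of the TSS, a match found in 44.9% of promoters.
Su(fu) upstream, chr3R:12691469-12691732, minus strand: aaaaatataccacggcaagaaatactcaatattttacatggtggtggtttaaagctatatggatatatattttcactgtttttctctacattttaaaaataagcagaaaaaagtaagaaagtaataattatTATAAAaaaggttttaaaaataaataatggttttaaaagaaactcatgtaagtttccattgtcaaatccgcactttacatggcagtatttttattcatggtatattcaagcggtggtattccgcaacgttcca

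The transcription factor gene ci (FBgn0004859, chromosome 4, 47710 to 57041, minus strand) is the only core component with more than 1 annotated start site, at 57041 and 56331. Its thresholded summit (signal 268, rank 4596) lay 93 bp upstream of the inner TSS, which is that of the canonical transcript, and in the 5' UTR of the longer transcript. The outer start site had no thresholded summit within 500 bp. Replicates 1 and 3 placed the summit 78 and 83 bp upstream of the inner TSS, at ranks 4856 and 4903. The summit was shared with the antisense RNA asRNA:CR43957, whose TSS was nearer (73 bp) in the thresholded list, farther in replicate 1 and equally near in replicate 3. When each summit counted for the nearest TSS alone, ci lost its promoter peak to this non-coding gene.

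The scaffold gene cos (FBgn0000352, chromosome 2R, 7382176 to 7387115, minus strand), whose product holds Fu and Ci in the cytoplasmic complex, starts 72 bp from the nearest TSS of Dhx15. It had 2 thresholded summits. The stronger (signal 319, rank 3930) lay 482 bp upstream, in an intron of Dhx15 and 273 bp inside that gene as measured from the more distant of its start sites, 209 bp from that of cos. The weaker (signal 196, rank 5919) lay 175 bp inside cos, in a coding exon, and was nearest to the cos TSS. Replicate 1 ranked the summit inside cos at 6013 and replicate 3 at 4072. No thresholded summit lay in the 72 bp between the start sites.

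The summits of the divergent pairs were set side by side within each list. A summit from 0 to 300 bp downstream of a TSS was taken as inside the gene, a limit set after the positions were seen. In the thresholded list 3 of the 5 pairs (cos, fu and Su(fu)) had a summit inside both genes, as had 25.5% of all 2625 divergent pairs. In the list of both replicates all 5 did, beside 41.7% of all pairs. The summit inside the pathway gene was stronger than that inside the neighbour at disp (350.0 and 65.1, a ratio of 5.38) and fu (815 and 409, a ratio of 2.00). It was weaker at cos (196 and 319, a ratio of 0.616), smo (145 and 496, a ratio of 0.293) and Su(fu) (222 and 797, a ratio of 0.279). The summit taken as inside smo also lay in a 5' UTR of CG17078. The order within each pair was the same in both replicates, except that replicate 1 had no summit inside ECSIT to compare with disp. The ratio was 2.04 in replicate 1 and 1.93 in replicate 3 at fu, while it was 0.201 and 0.912 at smo and 0.227 and 0.624 at Su(fu). At disp the ratio was 1.54 in replicate 3.

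**Figure D3:**
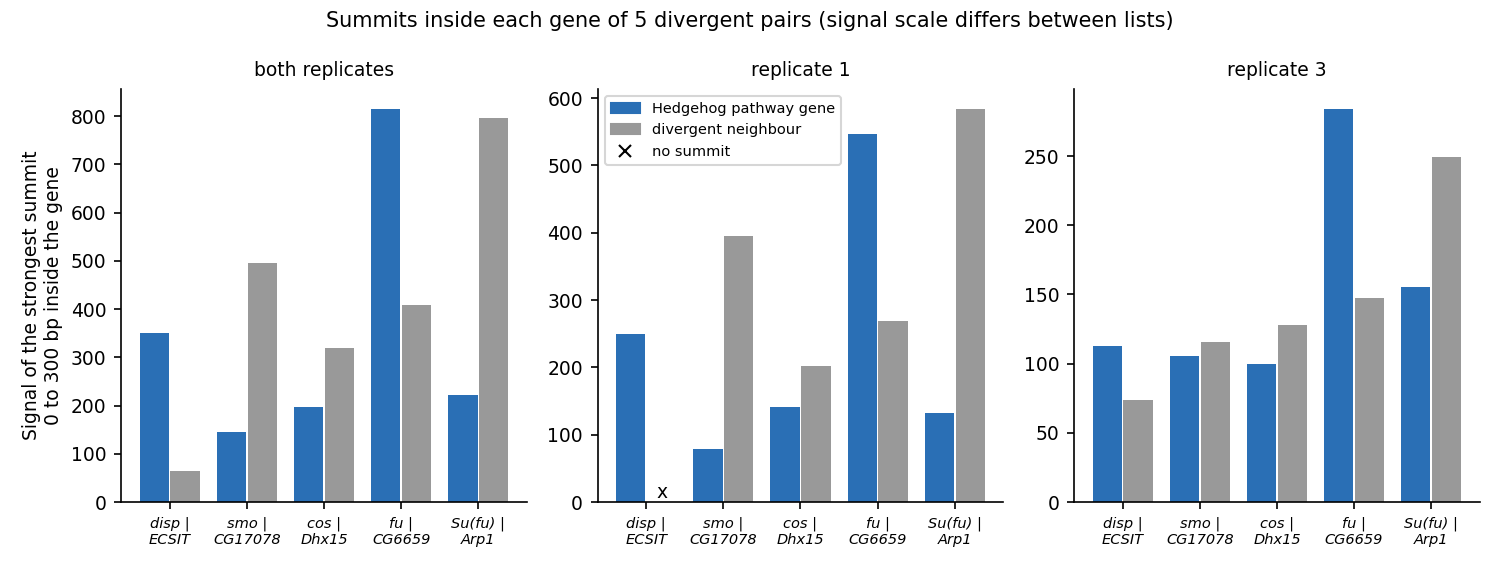
Signal (y axis, the authors' enrichment value, scale set per list) of the strongest summit 0 to 300 bp inside the pathway gene (blue) and inside its divergent neighbour (grey) for 5 gene pairs (x axis) in the list of both replicates and in each replicate, with a cross where no summit was listed. The pathway gene has the stronger summit at fu and the weaker at smo, cos and Su(fu) in all 3 panels, and the stronger at disp in the 2 panels where ECSIT has a summit.

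Assigning each summit only to the closest start site changed the comparison of the classes. Under that rule 6 of the 8 genes kept a promoter peak (35.8% of all genes did), namely ptc and all 5 ubiquitous genes. The single patterned value was 177 at ptc, against 196 at cos, 222 at Su(fu), 274 at smo, 350.0 at disp and 815 at fu among ubiquitous genes. The ci summit (268), above those of cos and Su(fu), dropped out because it lay nearer to an antisense RNA. In replicate 1, where ci kept its summit, the classes overlapped, with 183 at ci above 141 at cos and 133 at Su(fu). In replicate 3 the classes did not overlap under that rule, with 64.9 and 80.9 at ptc and ci against 99.6 to 284 at the ubiquitous genes. Among the 3207 strongest summits, without the nearest-TSS rule, none of the patterned genes had a promoter peak. Of the ubiquitous genes 3 did (smo, fu and Su(fu)), beside 27.4% of all genes. The smo and Su(fu) summits in that count lay nearer to the TSSs of CG17078 and Arp1. The summits nearest to the smo and Su(fu) TSSs ranked 4509 and 5402, outside the 3207 strongest. With windows of 250 and 1000 bp, 7 of the 8 genes had a peak (38.6% and 45.3% of all genes), as they did by the canonical TSS alone (40.0%). The window of 250 bp left smo, cos and Su(fu) with their weaker summits (274, 196 and 222), so that 268 at ci fell within the range of the ubiquitous genes. Among the 6415 strongest summits of replicate 3 it was 7 of 8 genes (43.3% of all genes) and among those of replicate 1 it was 6 of 8 (41.7%), ptc being the gene lost.

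The strongest summit nearest to the gene's own TSS was downstream at disp, cos, fu and Su(fu), by 101 to 175 bp, and upstream at ptc (80 bp) and smo (169 bp). The ci summit, nearer to the antisense RNA, was also upstream. At the ubiquitous gene smo the summit inside the gene was below the threshold, so the side did not follow the class in the thresholded list. For all 4952 genes with such a summit 81.9% lay downstream, with a median offset of 93 bp and quartiles of 26 and 138 bp. The summits of disp, cos and Su(fu) were thus beyond the upper quartile of that distance in the thresholded list. The replicates differed, with 203 bp at cos and 199 bp at Su(fu) in replicate 1 and 123 and 119 bp in replicate 3. At smo the strongest such summit was 169 bp upstream in replicate 1 and 160 bp downstream in replicate 3. At ptc it was 6 bp downstream in replicate 1 and 79 bp upstream in replicate 3. No gene of the 8 had a thresholded summit in its body outside the promoter, beside 3.86% of all genes.

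Of the motifs searched on both strands between 250 bp upstream and 50 bp downstream of the canonical TSS, DRE and the Motif 1 core were found at none of the 8 genes, while 9.01% and 5.91% of all promoters held them. Within 1000 bp upstream a DRE was found at smo alone (13.1% of all promoters) and a Motif 1 core at smo and fu (8.21%). The divergent neighbours of smo and fu start upstream, so the window itself sets the side of these matches. In the window from 250 bp upstream to 50 bp downstream, the GAGA element was found at 2 of the 8 genes, ptc and ci, beside 30.1% of all promoters. Within 1000 bp upstream it was found at 4 of the 8, smo and Su(fu) as well, beside 68.0% of all promoters. The pentamer CGATA was at hh, disp, smo and cos in the shorter window (46.7% of all promoters) and at 7 of the 8 genes in the longer (79.5%). A match to the initiator letters TCAGTT or TCAGTC, on either strand, was at disp, cos, Su(fu) and ci in the shorter window, beside 35.1% of all promoters. The matches at disp, cos and Su(fu) were on the reverse strand. That at ci lay 30 to 35 bp downstream of the TSS, so none was an initiator placed at the TSS on the gene's strand.

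Beyond the core components, 31 further genes of the pathway were listed from textbook knowledge, 25 that act on the signal and 6 target genes other than ptc. A promoter peak was found at 23 of the 25 genes that act on the signal and at none of the 6 target genes, beside 42.6% of all genes. Of the 25, 14 had a divergent protein-coding neighbour within 1000 bp and all 14 had a peak, beside 74.2% of all genes with such a neighbour. Of the 11 without one, 9 had a peak, beside 24.8% of all genes without one. None of the 6 target genes had such a neighbour, so 24.8% is also the share to set beside their count of 0. The median signal of the 23 genes with a peak was 577, against 468 for all genes with a promoter peak. The order turned by the canonical TSS alone (438 against 465) and in replicate 3 alone (149.6 against 152.4).

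Kinases and phosphatases that act on Smo, Ci or the Cos complex had a promoter peak in 8 of 8 cases, beside 42.6% of all genes. Most of these kinase and phosphatase genes had a divergent protein-coding neighbour, and 74.2% of all genes with one had a peak. The strongest were mts, the catalytic subunit of protein phosphatase 2A (signal 1424), wdb, a regulatory subunit of the same enzyme (931), gish, casein kinase 1 gamma (834), and sgg, the kinase GSK3 (577). The mts summit lay 483 bp upstream and nearer to the TSS of Rack1, and the summit nearest to an mts TSS had a signal of 484. Ubiquitin ligase genes, which set the processing and turnover of Ci and Smo, mostly had a divergent protein-coding neighbour too. They had a peak in 7 of 7 cases (42.6% of all genes), or 6 of 7 by the canonical TSS alone (40.0% of all genes). Among them rdx, the adaptor that targets Ci, had 933, Smurf, a ligase for Smo, 919, and Roc1a and Cul3, a RING subunit and a cullin, 843 and 842. By the canonical TSS alone Cul3 had no promoter peak, and the signal was 438 at rdx and 361 at gish. The coactivator gene nej, the fly CBP, had 510.4, or 196 by the canonical TSS alone.

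Both co-receptor genes carried a peak, boi at 1059, where the summit was nearer to the TSS of z, and ihog at 617. By the nearest or the canonical TSS alone boi had none. Genes for the processing and spread of the ligand had one in 5 of 7 cases, beside 42.6% of all genes, with signals of 214 to 411. The heparan sulfate polymerase botv had 411, rasp, the acyltransferase of Hedgehog, 363, the glypican dlp 282 and the polymerase sotv 261. The glypican dally and the secreted protein shf had none, with signals of 93.4 and 45.6 in the list of both replicates, although dally had a summit among the 6415 strongest of replicate 3. Of the target genes, wg and dpp, which encode Wnt and BMP ligands, had summits below the threshold (82.4 and 66.0). At en, kn, ara and caup, which encode transcription factors, no summit of that list was within 500 bp of a TSS.

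**Figure D4:**
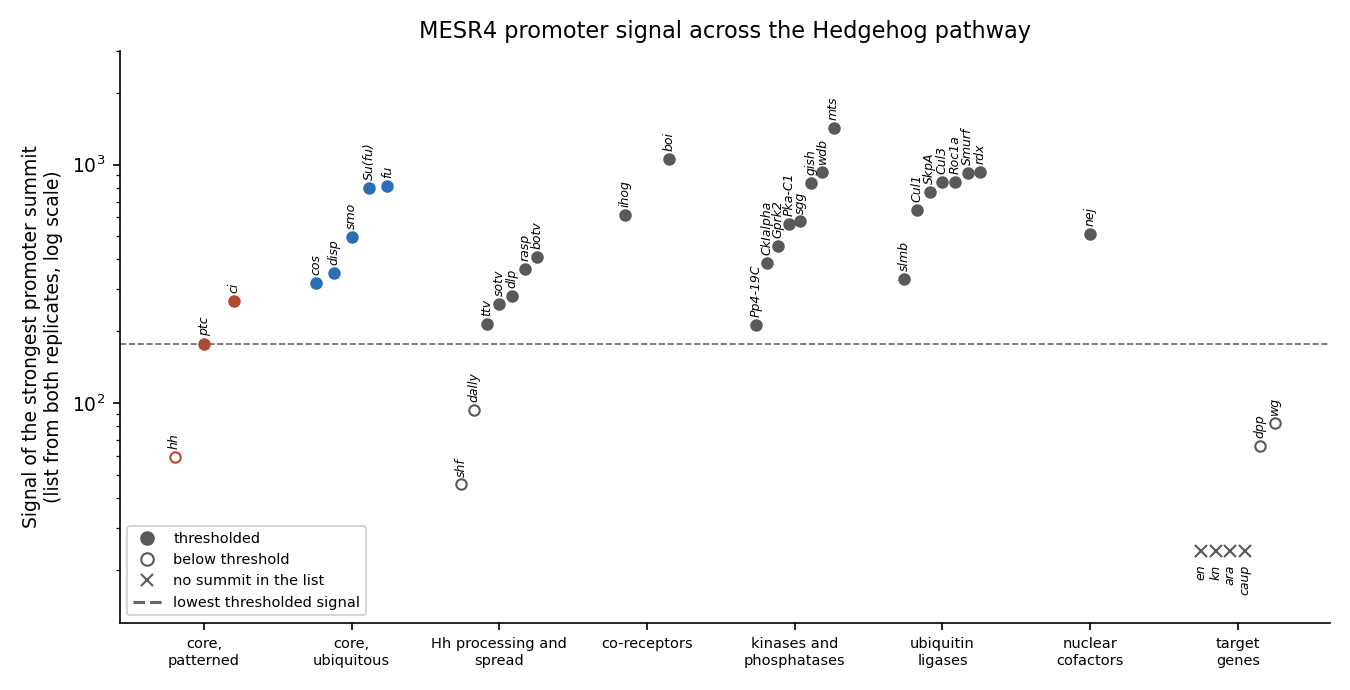
Signal of the strongest summit within 500 bp of a TSS in the list of both replicates (y axis, log scale) for the 8 core components and 31 other pathway genes by role (x axis), with filled points thresholded, open points below the dashed line at 176 and crosses for genes with no such summit. The 15 kinase, phosphatase and ubiquitin ligase genes are above the line, as are ptc and ci, while hh, dally, shf, wg and dpp are below it and en, kn, ara and caup have no such summit.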

How the data were processed

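Summits were taken from 4 peak lists that the authors deposited, 1 for each replicate, 1 called on both replicates and 1 thresholded on the irreproducible discovery rate, which compares peak ranks between replicates. Per the deposited listing with each sample, lists were called against 1 shared control alignment on dm6. The aligner, caller, threshold, treatment of multiply mapping reads and depth are not given in the sources used here. Signal values per peak, as deposited, have a scale set per list. All 6415 thresholded summits were found in the list of both replicates, as its 6415 strongest. Fragments were 200 to 800 bp, per the labels, which limits how finely neighbouring start sites are resolved.

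TSSs came from Ensembl release 115 without transposons, and bases from the release 6 genome, on 6 chromosome arms whose lengths held all peaks. The 111 genes of the histone cluster were left out. Signals were ranked within lists with Python 3.11.15, numpy 2.4.6 and pandas 2.3.3, and figures drawn with matplotlib 3.10.9. A summit counts for every gene with a TSS in its window. The procedure was tested on 200 simulated summits at isolated genes and returned the 116 placed within 500 bp. These summits were not shared between genes, so the count bears on the code alone. Of 13833 promoters searched for motifs, TSSs were those of canonical transcripts. The alternatives were the window, the 3207 strongest summits, each replicate alone, the nearest TSS and the canonical TSS. Text names all 8 members, genes sharing their summits and up to 4 genes with the strongest peaks per role. The genes dally, shf and the target genes were named after their values were seen. The limits for divergent pairs and the comparison of offsets were set after the data were seen. The members and lists were chosen with earlier results of these data known.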

Additional observations from a re-analysis of the deposited data

How the results depend on the processing

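Among the 3207 strongest summits, 3 of the 8 core genes had a promoter peak, 0 of the patterned and 3 of the ubiquitous genes. Of all genes 3786 (27.4%) had one, as fewer summits are counted. At smo and Su(fu) the summit counted was nearer to the TSS of the divergent neighbour. With the nearest TSS alone, 1 of the patterned genes had a peak (35.8% of all genes), since the ci summit lay nearer to an antisense RNA. Leaving out either replicate gave 6 to 7 core genes, 1 to 2 patterned and 5 ubiquitous, ptc being lost without replicate 3. It gave 23 to 24 other pathway genes and 5762 to 5993 of all genes (41.7% to 43.3%). The other counts of genes with a promoter peak were within 1.5 times those reported under the windows of 250 and 1000 bp, the nearest TSS and the canonical TSS. The rank of the strongest summit moved by more than 1 SD of its ranks in the 2 replicates in 9 recomputed values and by less in 34, the largest moves being those of smo, cos and Su(fu) to weaker summits with the 250 bp window or the nearest TSS. No paired analysis was possible because there was 1 group. Each replicate list stops at 30000 summits, with a lowest signal of 15.5 in replicate 3. A summit absent from a list, as at hh in replicate 3, may lie below that cut, and depth is unknown.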

Other observations

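Below the threshold, all 8 genes held further summits inside the gene, the most at ptc and hh. In the list of both replicates ptc had 13 summits inside the gene and more than 500 bp from its TSS, the strongest in an intron 4742 bp downstream with a signal of 141 and rank 7576. Replicate 3 had its strongest there too, 4792 bp downstream at rank 5096, whereas replicate 1 had its strongest 10090 bp downstream at rank 9311. The gene hh had 4 such summits, the strongest in an intron 8139 bp downstream with a signal of 69.3, which is above the 59.4 of its promoter summit. The third patterned gene, ci, had 1, with a signal of 32.6, and the ubiquitous genes had 1 to 3 each. Of these, smo and cos had 3 each at lengths of 4586 and 4940 bp, and disp had 1 at 6615 bp. The genes ptc and hh are also the longest of the 8, at 15575 bp for ptc and 13738 bp for hh, and the part of gene length in these counts was not tested.

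The phosphatase gene mts ranked 62 by its strongest promoter summit in replicate 3 and 2329 in replicate 1. These were different summits, since that of replicate 1 lay 77 bp downstream of an mts TSS and that of replicate 3 lay upstream. The strongest summit in the list of both replicates was 483 bp upstream, close to the edge of the 500 bp window.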
